A study of Mus musculus with 2 samples.

Results

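Pure fast 2X myofibers were single muscle fibres whose fast myosin transcripts were mostly Myh1, the gene of the 2X heavy chain, with little Myh2, the gene of the 2A heavy chain. They were selected on their counts of Myh genes among the 171 cells, of 763 in all, that had more than 5000 genes detected and less than 20% of their counts from mitochondrial genes. A cell was a member when Myh1 was the largest of Myh1, Myh2, Myh4, Myh7 and Myh8 and when Myh2 made up less than 25% of Myh1 and Myh2 together, a quantity called here the Myh2 share. This gave 69 members, or 40.4% of the 171 cells (95% Clopper-Pearson limits 32.9 to 48.1). The levels of the 5 Myh genes chose the members and are therefore a description, and the results concern other genes.

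All cells came from the flexor digitorum brevis (FDB), a short foot muscle, of 1 C57BL/6J mouse over 3 months old, with no treatment given in the labels. The fibres were freed with collagenase, sorted singly with a large particle sorter into 8 plates and read by mcSCRB-seq on 2 lanes, a method in which unique molecular identifiers (UMIs) count each captured RNA molecule once. Members were set beside 48 Myh1-leading hybrid cells, which have Myh1 as the largest gene and a Myh2 share of at least 25%, and beside 51 fast 2A cells, in which Myh2 was the largest. The other 3 cells were led by other Myh genes. In fast 2A cells Myh7, the gene of the slow heavy chain, had only not to exceed Myh2, so this group may include fibres with slow traits. Cells and lanes of 1 mouse are not biological replicates, so no p-value is given. Summed counts were scaled to a total of 1000000 (CPM), and all 95% limits cover counting error only.

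Type 2X fibres are fast-contracting fibres that stand between 2A and 2B fibres in speed and rely more on glycolysis than 2A fibres do. They express fast isoforms of the sarcomere proteins, store calcium in a large sarcoplasmic reticulum and buffer it with parvalbumin. Slow fibres use slow troponins and light chains, and oxidative fibres hold more mitochondria and fatty acid enzymes.

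By the rule, the Myh2 share of the members ran from 7.79% to 24.8% with a median of 17.9%, compared with 25% to 49.5% in hybrid cells and 52.6% to 93.3% in fast 2A cells. The limit crosses a continuous range, as 32 Myh1-leading cells had a share between 20% and 30%. The nearest members had shares of 24.5%, 24.6% and 24.8% and held 1791, 4142 and 3315 CPM of Actn3. The nearest cells outside had 25%, 25.4% and 26.7% and held 3521, 587 and 1754 CPM of Actn3. The 3 cells on either side thus overlapped in this gene.

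The members comprised 30 cells on lane 1 and 39 on lane 2, with 5 to 13 cells on each plate. Their summed counts were 29122361 UMIs, and 1 member held from 30473 to 1542996 with a median of 306977. Hybrid cells had a median of 132570 and fast 2A cells of 206510, so the members were the deepest of the 3 groups. Their median of 13769 detected genes was also above the 10671.5 of hybrid cells and the 11477 of fast 2A cells. The median mitochondrial share of counts was 4.40%, against 7.75% and 6.96%. Per spike-in UMI, the members held a median of 1554 gene UMIs against 1128 and 1115. The part of depth and mitochondrial share in the differences of levels was not tested, and values with each cell thinned to an equal depth are given beside the main genes.

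**Figure D1:**
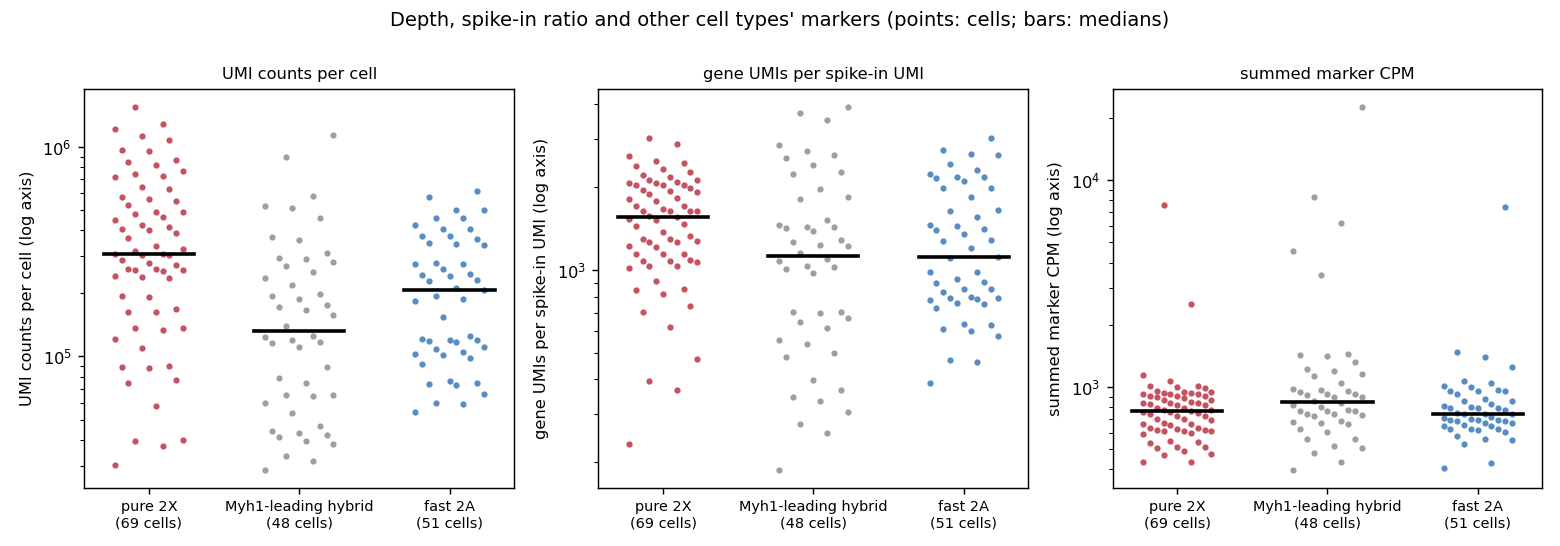
UMI counts per cell, gene UMIs per spike-in UMI and the summed CPM of 68 marker genes of other cell types, each on a log axis, with 1 point per cell and a bar at the median of the 69 pure 2X, 48 hybrid and 51 fast 2A cells. The medians of depth were 306977, 132570 and 206510 UMIs, and 1 member stood at 7552 CPM of other cell types' markers.

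None of the members was a pseudo-biopsy fragment, while 3 of the hybrid cells were. The plates share 96 cell barcodes, so all 763 cells carry a barcode that also occurs on another plate, and no plate and barcode occurred together more than once. The wells were filled by sorting and no doublet caller was run. Markers of 8 other cell types, 68 genes in all, summed to 797 CPM in the members (95% limits 786 to 807), against 1160 CPM in hybrid and 805 CPM in fast 2A cells. Of the 23199 counts behind this sum in the members, Itga7, Smtn, Sdc4 and Tek gave 3749, 2847, 2813 and 2586. The sum thus rested largely on a few genes, and whether their counts came from other cells was not tested. Hba-a2, a globin gene of red blood cells, was at 0 in the members and in hybrid cells. The 6 red blood cell markers together reached 16.8 CPM in the members, 38.3 CPM in hybrid and 8.99 CPM in fast 2A cells. In the members, 1 cell held 48.2% of these counts, and 22 cells had none. For the 68 markers together, a single member reached 7552 CPM, with 40124 UMIs, 19.7% mitochondrial counts and 673 CPM of Actn3.

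The 4 marker genes besides Myh1 were listed for this part with earlier results of these data known, so their levels are a description. All 4 were higher in the members than in fast 2A cells, and hybrid cells lay between. Actn3, on chromosome 19 from 4861216 to 4877909 in GRCm38, encodes alpha-actinin-3 of the fast Z-disc. It reached 2934 CPM on lane 1 and 2674 CPM on lane 2 in the members, 1608 and 1433 CPM in hybrid cells, and 647 and 857 CPM in fast 2A cells. The log2 ratio of members to fast 2A cells was 1.91 (95% limits 1.88 to 1.94), and 68 of the 69 members lay above the highest fast 2A cell. The exception was the member with 673 CPM.

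Pvalb, on chromosome 15 from 78191114 to 78206400, encodes the calcium buffer parvalbumin. It was the most abundant of these markers, with 7110 and 7149 CPM on the 2 lanes in the members, against 3816 and 4707 CPM in hybrid and 1777 and 2508 CPM in fast 2A cells. The log2 ratio to fast 2A cells was 1.77 (limits 1.75 to 1.79), and 67 members exceeded the highest fast 2A cell. The groups were thus nearly separate in both genes.

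Mybpc2, on chromosome 7 from 44501699 to 44524656, encodes the fast myosin-binding protein C of the thick filament. Its level was 1002 and 818 CPM on the 2 lanes in the members and 177 and 190 CPM in fast 2A cells, a log2 ratio of 2.28 (limits 2.22 to 2.34). Hybrid cells held 603 and 465 CPM. Gm44646, a transcript on the opposite strand over an end of Mybpc2, gave 23.7 CPM in the members and 2.18 CPM in fast 2A cells, a log2 ratio of 3.44. Reads of an overlapping pair may be split between its genes, so this value is uncertain.

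Mss51, on chromosome 14 from 20482867 to 20496901, encodes a muscle protein linked to the regulation of mitochondrial metabolism. It had 1989 and 1996 CPM on the 2 lanes in the members, 1269 and 1383 CPM in hybrid cells, and 379 and 606 CPM in fast 2A cells. The log2 ratio to fast 2A cells was 2.06 (limits 2.02 to 2.10). With each cell thinned to 28827 counts, the log2 ratios of Actn3, Pvalb, Mybpc2 and Mss51 were 1.98, 1.77, 2.33 and 1.97, all still past 1.

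**Figure D2:**
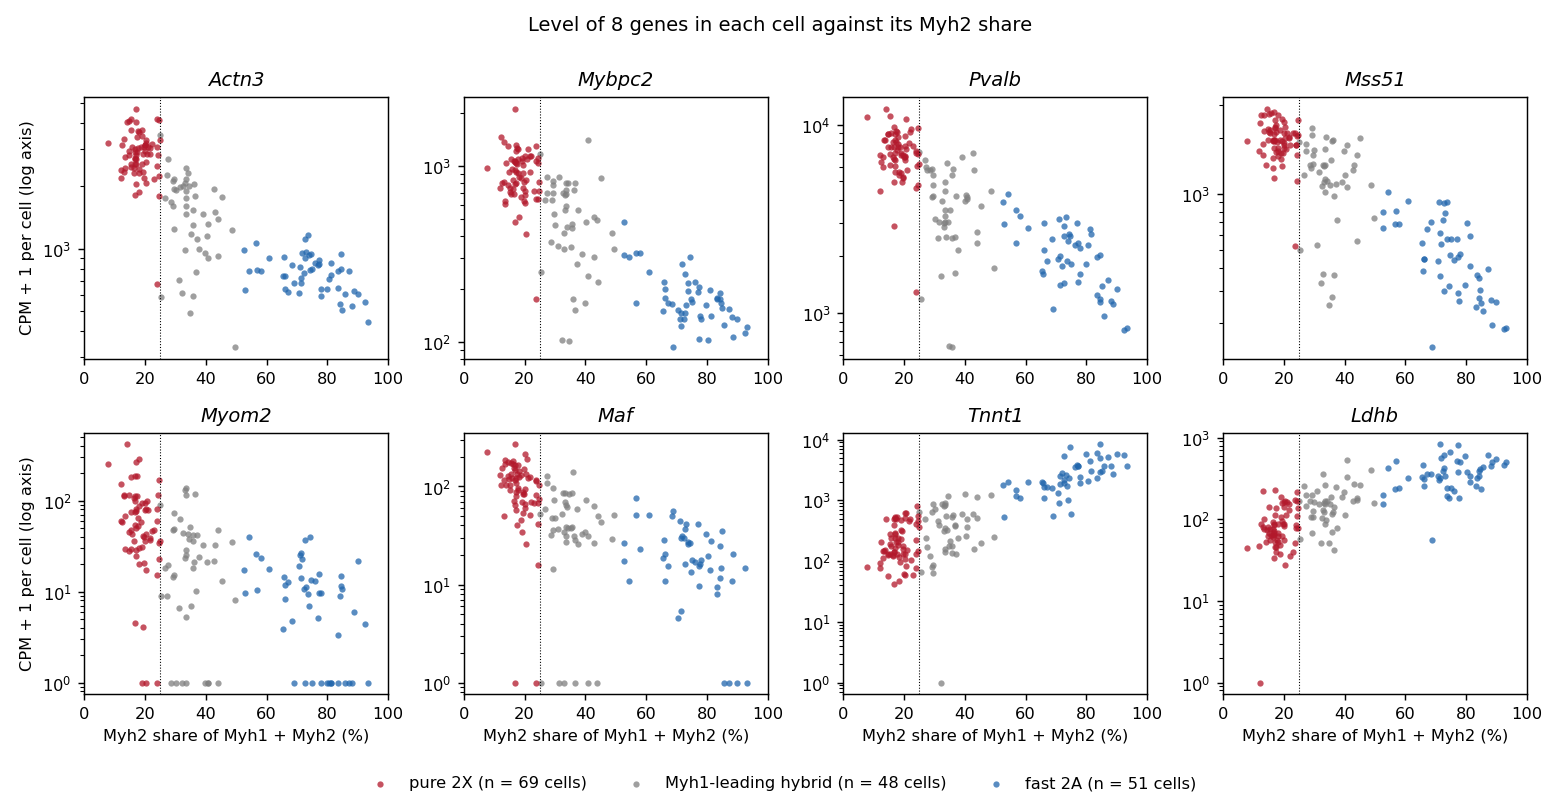
CPM + 1 of 8 genes in each cell (log axis) against the Myh2 share of Myh1 and Myh2 in percent, with the limit of 25% as a dotted line, for 69 pure 2X, 48 hybrid and 51 fast 2A cells. In Actn3, 68 of 69 members lay above the highest fast 2A cell, while for Tnnt1 no member lay above the fast 2A median.

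The plot of levels in each cell shows the members at high Actn3, Mybpc2, Pvalb and Mss51, a wide hybrid group, and fast 2A cells at low levels. Myom2 and Maf spread more among the members, and several members had no count of them. Myom2 ran from 0 to 412 CPM with a median of 57.4 CPM, and 45 of 69 members exceeded the highest fast 2A cell.

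Against fast 2A cells, 7667 genes had at least 500 counts over both groups, not counting the 5 Myh genes. Of these, 159 were more than 2-fold higher in the members (2.07%) and 90 were more than 2-fold lower (1.17%). All of these genes had the same direction on each lane alone and in the mean over cells. On 7 plates both groups had at least 3 cells, and 129 of the 159 and 78 of the 90 had their direction on every such plate. Lanes and plates make up the summed counts that chose these genes, so this agreement was in part set by the choice. Its share over all 7667 genes is not given. The 95% limits lay wholly past 2-fold for 93 of the 159 and 63 of the 90. The median log2 ratio of all genes tested was 0.10, and with TMM factors, which centre it near 0, the split was 117 higher and 107 lower, or 52.2% higher in place of 63.9%. The members held more summed counts than fast 2A cells, so genes high in the members reached 500 counts more readily. With at least 20 CPM in the higher group in place of 500 counts, 131 genes were higher and 96 lower.

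The 12 highest named genes, among them Mybpc2 and Mss51, came from several families. Myom2, of the M-band that joins thick filaments in mid-sarcomere, led with a log2 ratio of 2.71 (limits 2.45 to 2.97). It stood at 67.3 and 72.8 CPM on the 2 lanes in the members and at 9.42 and 12.7 CPM in fast 2A cells. Maf, a transcription factor of the large Maf family, followed at 2.35, with 96.4 and 124 CPM against 17.1 and 29.4 CPM. The lanes of the groups did not overlap for either gene.

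Membrane proteins were the next set. Kcnh7, a voltage-gated potassium channel, was at 83.4 CPM in the members and 16.9 CPM in fast 2A cells (log2 2.31). Atp1b2, the beta 2 subunit of the sodium pump, was at 134 CPM against 31.7 CPM (log2 2.08), and 57 of 69 members lay above the highest fast 2A cell. Neto2, an auxiliary subunit of kainate receptors, was at 27.1 CPM against 6.13 CPM (log2 2.15).

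Dupd1, on chromosome 14 from 21676537 to 21714576, encodes a dual-specificity phosphatase of muscle and reached 50.7 CPM against 10.3 CPM (log2 2.30). Odf3l2 was at 142 CPM against 30.3 CPM (log2 2.23). Amd2, of the enzyme family that makes decarboxylated S-adenosylmethionine for polyamines, had 27.8 CPM against 6.13 CPM (log2 2.18). Of the 66-base stretches of its transcripts, 81.5% also occur in Amd1, so that the split of reads between these genes is uncertain. Amd1 itself had 74.6 and 100 CPM on the 2 lanes against 21.5 and 22.7 CPM (log2 2.04), so both copies had the same direction.

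Ucp1, known as the uncoupling protein of brown fat, and Carmn, a long noncoding RNA known from smooth and cardiac muscle, were low throughout. Ucp1 had 19.0 CPM in the members and 4.03 CPM in fast 2A cells (log2 2.24), and Carmn had 16.2 CPM against 3.86 CPM (log2 2.07). Ucp1 was found in 51 of 69 members, from 0 to 249 CPM with a median of 6.54 CPM, so its level varied widely from member to member.

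**Figure D3:**
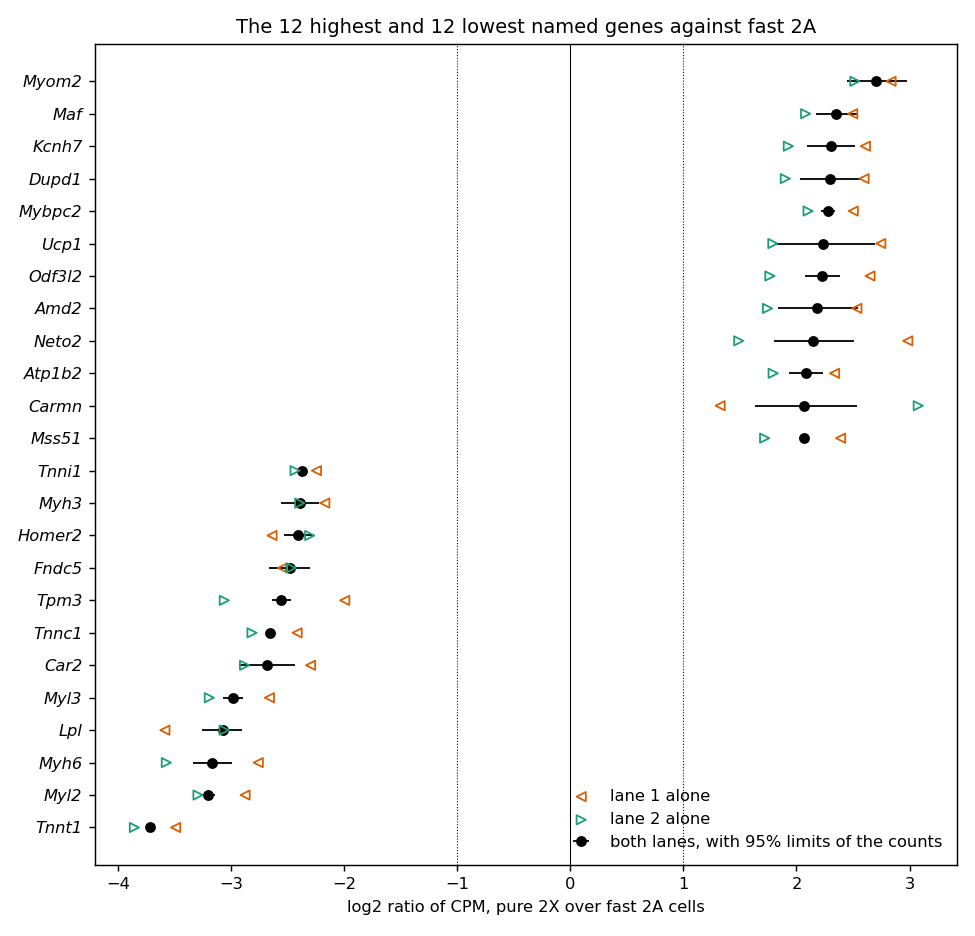
Log2 ratio of CPM, members over fast 2A cells, of the 12 highest and 12 lowest named genes, with both lanes together (points, 95% limits of the counts) and each lane alone (triangles); dotted lines mark 2-fold. The ratios ran from 2.71 for Myom2 to -3.72 for Tnnt1. Both lanes lay on the same side of 0 for all 24 genes, as the rule that chose them required.

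The 12 lowest genes were led by slow sarcomere genes. Tnnt1, the slow troponin T, had 262 and 197 CPM on the 2 lanes in the members and 2948 and 2855 CPM in fast 2A cells, a log2 ratio of -3.72 (limits -3.75 to -3.68). Of the 69 members, 65 lay below the lowest fast 2A cell. Tnnc1, troponin C of slow and cardiac muscle, had 351 CPM against 2218 CPM (log2 -2.66), and Tnni1, slow troponin I, had 327 CPM against 1697 CPM (log2 -2.38). In each of these genes no member exceeded the fast 2A median. Some fast 2A cells were high in Tnnt1, such as 2 with 8315 and 7578 CPM. Of the cells led by other Myh genes, 2 held 8517 and 6837 CPM. The part of fast 2A cells with slow traits in the ratios of slow genes was not tested.

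The light chains Myl2 and Myl3 of slow and cardiac muscle were at 106 and 48.0 CPM in the members and at 971 and 379 CPM in fast 2A cells (log2 -3.20 and -2.98). Myh3, the embryonic heavy chain, had 14.7 CPM against 77.0 CPM (log2 -2.39). Myh6 and Tpm3 also belonged to this set, at -3.17 and -2.56, but a single fast 2A cell held 45.8% and 34.0% of the fast 2A counts. Their direction held on 6 and 5 of the 7 plates. Myh6 shares 15.4% of its 66-base stretches with Myh7, and Tpm3 shares 20.5% with Tpm3-rs7, so their counts are uncertain.

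Outside the sarcomere, Lpl, the lipase that frees fatty acids from lipoproteins, had 11.7 CPM in the members and 98.7 CPM in fast 2A cells (log2 -3.08). Car2, a carbonic anhydrase, had 6.32 CPM against 40.5 CPM (log2 -2.68). Fndc5, the precursor of irisin, had 12.3 CPM against 68.7 CPM (log2 -2.48). Homer2, a scaffold protein of calcium signalling, had 26.3 CPM against 140 CPM (log2 -2.41). The members were thus low in these 4 genes, and for Homer2 no member exceeded the fast 2A median.

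The gene lists describe these groups by role. Of the 6 fast genes of the thick filament and M-band, 4 were past 2-fold higher and none lower, with a median log2 ratio of 1.29 against 0.10 for all genes. Mylk4 and Mylk2, kinases of the myosin light chain family, had 1.49 and 1.09. The abundant light chains Mylpf and Myl1 had only 0.33 and 0.57. Of 5 slow or shared genes of the same structures, 3 were past 2-fold lower, with a median of -1.91. Mybpc1, the slow myosin-binding protein C, stood at 4533 CPM in the members and 4289 CPM in fast 2A cells (log2 0.08), under the median of all genes.

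Fast thin filament genes differed less. None of 5 was past 2-fold, and their median was 0.23, with Tnnt3, the fast troponin T, at 12259 CPM against 10484 CPM. Of 8 slow or shared thin filament genes, 4 were past 2-fold lower and none higher, with a median of -1.51. Slow troponins therefore differed by more than their fast partners.

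At the Z-disc, 1 gene of 12 was past 2-fold higher and 2 were lower, with a median of -0.25. Calsarcins, which bind calcineurin there, went both ways. Myoz1, calsarcin-2, had 2348 CPM in the members and 1284 CPM in fast 2A cells (log2 0.87). Myoz2, calsarcin-1, had 210 CPM against 783 CPM (log2 -1.90). Alpha-actinins did likewise, with Actn2 at 1483 CPM against 2583 CPM (log2 -0.80). Ankrd2, a stretch-responsive protein, was at -2.01.

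For calcium release and buffering, 1 of 18 genes was past 2-fold higher, namely Pvalb, and none lower. The median was 0.37, and 14 of the 18 lay above the median of all genes. Atp2a1, the fast calcium pump, had 3481 CPM in the members and 1998 CPM in fast 2A cells (log2 0.80), and Casq1, fast calsequestrin, had 1577 CPM against 827 CPM (log2 0.93). The slow pump Atp2a2 and the cardiac calsequestrin Casq2 were low throughout, with log2 ratios of -1.30 and -1.07. Ryr3, a minor ryanodine receptor, had 173 CPM against 58.2 CPM (log2 1.57), while Ryr1, the main release channel, had 4863 CPM against 4415 CPM (log2 0.14). Ryr3 overlaps Aven on the opposite strand, so its count is uncertain.

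Of 21 genes of glycogen and glycolysis, 3 were past 2-fold higher and none lower, with a median of 0.47, and 19 lay above the median of all genes. Gpd1, the cytosolic glycerol-3-phosphate dehydrogenase, had 115 CPM in the members and 40.6 CPM in fast 2A cells (log2 1.50). Phka1 and Phkb, subunits of phosphorylase kinase, had 286 and 202 CPM against 118 and 87.9 CPM. The abundant enzymes differed less, with Aldoa at 13891 CPM against 10554 CPM (log2 0.40) and Pygm, the muscle glycogen phosphorylase, at 3817 CPM against 2529 CPM (log2 0.59). Gys1, glycogen synthase, went the other way at -0.71. Lactate dehydrogenase divided by isoform, with Ldha at 1409 CPM against 835 CPM (log2 0.75) and Ldhb at 84.7 CPM against 356 CPM (log2 -2.07).

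Of 24 nuclear respiratory chain genes, all had ratios below 0, 2 were past 2-fold lower, and the median was -0.38. The 2 were Ckmt2, the mitochondrial creatine kinase, at 129 CPM against 422 CPM (log2 -1.71), and Coq8a, of coenzyme Q synthesis, at 324 CPM against 659 CPM (log2 -1.02). All 9 tested genes of the mitochondrial genome were below 0 with a median of -0.42 and none past 2-fold. In mt-Nd6 this sign held on 4 of 7 plates, and the mean over cells gave 0.01. Of 20 genes of the citric acid cycle and shuttles, 3 were past 2-fold lower and the median was -0.35, with Idh2 at -1.27 and Got1 at -1.06 beside Ldhb. Of 20 fatty acid genes, 3 were past 2-fold lower and the median was -0.51, the others past 2-fold being the fatty acid transporter Cd36 at -1.55 and the binding protein Fabp3 at -1.05. Ucp3 was higher, at 42.2 CPM against 25.2 CPM (log2 0.75). The lower share of mitochondrial counts in the members moves with these lists, and with totals free of mitochondrial genes the median of all genes was 0.06 in place of 0.10.

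**Figure D4:**
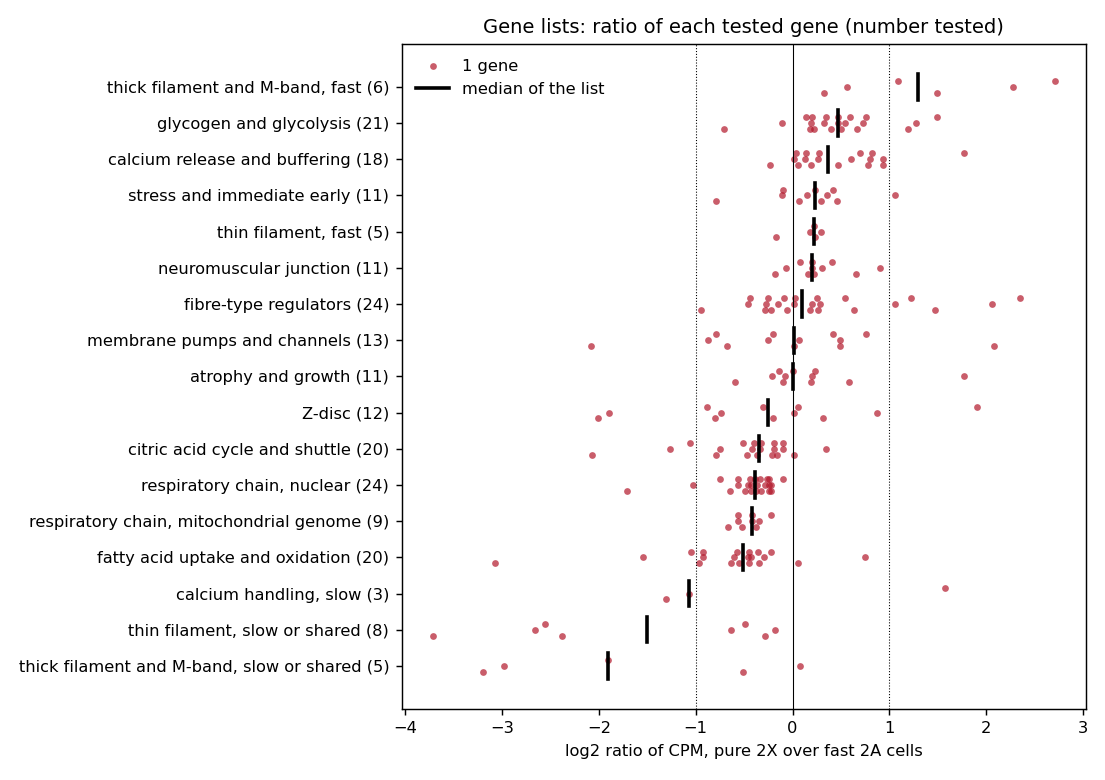
Log2 ratio of CPM, members over fast 2A cells, of each tested gene (points) in 17 gene lists, with the list median (bars), the number of genes tested in parentheses and dotted lines at 2-fold. Medians ran from 1.29 for the fast thick filament and M-band to -1.91 for its slow or shared genes.

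Among 24 regulators of fibre type, 5 were past 2-fold higher and none lower, and the median was 0.10, as over all genes. Maf and Mss51 were among the 5. Mafa, another transcription factor, had 62.7 CPM in the members and 26.8 CPM in fast 2A cells (log2 1.23, limits 1.05 to 1.40), with the same direction on 7 of 7 plates. Eya4, a transcriptional coactivator, had 364 CPM against 175 CPM (log2 1.06). Sox6 and Tbx15, factors of the fast programme, had 0.64 and 0.55. Esrrg, an oxidative nuclear receptor, was lowest at -0.95.

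Sodium pump subunits went both ways within 13 pumps and channels, whose median of 0.01 was slightly below 0 under other scalings, such as -0.09 with TMM factors. Atp1b2 was past 2-fold higher, while the pump regulator Fxyd6 had 83.1 CPM in the members and 351 CPM in fast 2A cells (log2 -2.08). Atp1b1, the beta 1 subunit, had -0.87. Clcn1, the muscle chloride channel, had 0.75 and Scn4a, the muscle sodium channel, 0.07.

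Of 11 neuromuscular junction genes none was past 2-fold, with Chrne, the adult acetylcholine receptor subunit, highest at 0.90. Of 11 genes of atrophy and growth, Mstn, which encodes the growth inhibitor myostatin, was past 2-fold higher with 54.1 CPM against 15.8 CPM (log2 1.78), and the median was 0.00 (-0.10 with TMM factors). Of 11 stress and immediate early genes, Fosb was past 2-fold higher (log2 1.06) and the median was 0.23, or -0.06 without lane 2.

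Against the nearest group, the Myh1-leading hybrid cells, differences were smaller. Of 7581 genes, 220 were more than 1.5-fold higher in the members (2.9%) and 183 were more than 1.5-fold lower (2.41%). This balance depended on the scaling, with 184 higher and 224 lower on totals free of mitochondrial genes and 326 higher and 481 lower in the mean over cells, and it was 169 higher and 260 lower without plate 708. The direction held on both lanes and in the mean over cells for 208 and 159 of them, and on all 6 plates for 112 and 59. Hybrid cells lay between the members and fast 2A cells for 155 of the 159 genes higher against fast 2A (97.5%) and for 88 of the 90 lower (97.8%), compared with 3362 of all 7667 (43.9%). The members are the same cells in both comparisons, so these are not independent. The 159 and 90 genes were also chosen for a wide gap between members and fast 2A cells, so a hybrid value falls between more readily. The share over all 7667 genes, most with a narrow gap, is thus not a like baseline.

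The 8 highest genes against hybrid cells were Odf3l2 (log2 1.81), Amd2 (1.62), Ucp1 (1.60), Kcnh7 (1.50), Amd1 (1.44), Myom2 (1.41), Gdf11 (1.37) and Ddr2 (1.35). Gdf11, a growth factor related to myostatin, had 51.9 CPM in the members and 20.1 CPM in hybrid cells. Ddr2, a collagen receptor, had 57.6 CPM against 22.7 CPM. The 4 marker genes were less far apart than these, with Actn3 at 0.84, Pvalb at 0.79, Mybpc2 at 0.67 and Mss51 at 0.61.

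The 8 lowest genes against hybrid cells rested on few hybrid cells, and Myh11, Rgs5 and Col3a1 of the 8 were in the marker lists of other cell types. Selp, the P-selectin of endothelium and platelets, had 3.12 CPM in the members and 54.7 CPM in hybrid cells (log2 -4.13), but 92.0% of the hybrid counts came from a single cell. Mctp1 had -1.64, with 70.6% of the hybrid counts in a single cell, and was 0.15 without plate 711. Myh11 of smooth muscle had -2.03, S100a8 of neutrophils -2.01, Rgs5 of pericytes -1.61, Adamts4 -1.49, the collagen gene Col3a1 -1.41 and Emp1 -1.38. A single hybrid cell held between 34.1% and 66.4% of the hybrid counts of these genes. Markers of other cell types were also higher in hybrid cells in sum, as given above, and their part was not tested.

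Genes of the fibre itself were also lower than in hybrid cells. Myoz2 had 210 CPM against 464 CPM (log2 -1.14), Lpl 11.7 CPM against 25.3 CPM (-1.11), Homer2 26.3 CPM against 55.0 CPM (-1.06) and Ldhb 84.7 CPM against 159 CPM (-0.90). The slow troponins Tnni1, Tnnt1 and Tnnc1 had -0.72, -0.66 and -0.61. Myl2 had 106 CPM against 121 CPM (log2 -0.19) and differed in sign between the lanes. The lanes of members and hybrid cells thus overlapped in this gene, and both groups lay far under the 971 CPM of fast 2A cells.

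**Figure D5:**
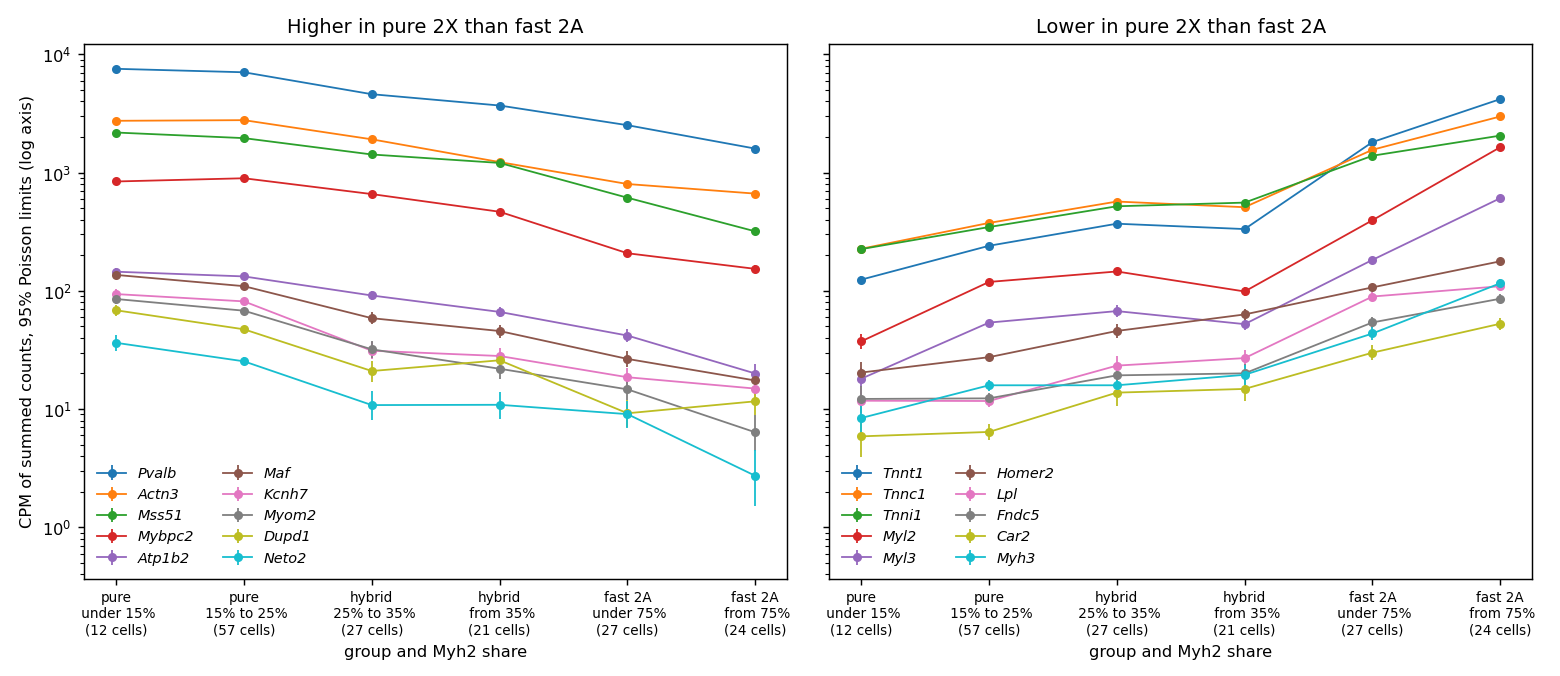
CPM of summed counts (log axis, 95% Poisson limits) of 10 genes higher and 10 genes lower in members than in fast 2A cells, in 6 ranges of the Myh2 share, with the number of cells in each. Mss51 went from 2181 CPM at the lowest Myh2 share to 318 CPM at the highest, and Tnnt1 from 124 to 4183 CPM.

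The plot of levels along the Myh2 share divides each group by that share. Mss51 had 2181 CPM in the 12 members under 15%, 1957 CPM in the 57 other members, 1423 and 1207 CPM in the 2 ranges of hybrid cells, and 613 and 318 CPM in the 2 ranges of fast 2A cells. Tnnt1 had 124 and 240 CPM in the members, 370 and 333 CPM in hybrid cells, and 1812 and 4183 CPM in fast 2A cells. Mss51 thus stepped down from range to range, while summed Tnnt1 was no higher in the upper than in the lower range of hybrid cells. The median hybrid cell went the other way, with 352 CPM of Tnnt1 in the lower and 378 CPM in the upper range. Actn3 was level among the members, at 2742 and 2776 CPM. Depth differed between these ranges as it did between the groups.

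Among the members themselves, the spread of a gene was given as the coefficient of variation (CV) of CPM over the 69 cells less the part that Poisson counting gives. Over 6363 genes with at least 500 counts the median CV was 54.8%. The markers varied less, with 20.3% for Mss51, 23.2% for Actn3, 25.5% for Pvalb and 30.1% for Mybpc2. Low spread was not particular to them, as the abundant Mybpc1 and Tpm2 had 16.9% each. These belong to the slow or shared lists of the thick and thin filament, whose medians were 59.8% and 38.9%. By list, fast thin filament genes had a median CV of 19.4% and glycolytic genes 25.7%, while genes of the mitochondrial genome had 68.2% and stress genes 67.3%. The medians of the fast thin filament and glycolytic lists were thus below that of all genes, although Tnnc2 had 62.4% and Fbp2 66.9%.

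The 12 most variable genes were Gsn, Stard13, Pkp4, Bnc2, Tmem108, Fstl1, Dlc1, Vim, Dmac2, Crip1, Zkscan1 and Cxcl1, with a CV from 256% for Cxcl1 to 373% for Gsn. For 10 of them the highest CPM was in the single member with most markers of other cell types, the exceptions being Dmac2 and Zkscan1. Without that member 3 of the 12 remained among the most variable, namely Dmac2, Zkscan1 and Cxcl1. Ucp1 then ranked among the 12, with a CV of 188% over all members.

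Over the 69 members, Spearman's rho was 0.56 between Actn3 and Eno3 and 0.50 between Actn3 and Mybpc2. With the Myh2 share, rho was -0.43 for Neto2, -0.42 for Maf, -0.37 for Amd1 and -0.35 for Mstn. Mstn also had a rho of 0.52 with the UMI counts of the cell, and Amd1, Maf and Neto2 had 0.35, 0.29 and 0.23. For Actn3, Eno3 and Mybpc2 this rho was -0.37, -0.36 and -0.30. The part of depth in the other values of rho was not tested. These cells share 1 mouse, 2 lanes and unequal depth, so the values are descriptions.

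Promoter sequences are shown for Pvalb, the most abundant marker, and Dupd1, since both hold a match to the MEF2 motif, the binding motif of a family of muscle transcription factors. They span 250 bases before to 50 after a start of the gene in RefSeq, build GRCm38.p6, and both genes lie on the minus strand. Pvalb is shown at chr15:78206351-78206650 and Dupd1 at chr14:21714527-21714826, each 5′ to 3′ along the gene, with matches in capitals.
Pvalb: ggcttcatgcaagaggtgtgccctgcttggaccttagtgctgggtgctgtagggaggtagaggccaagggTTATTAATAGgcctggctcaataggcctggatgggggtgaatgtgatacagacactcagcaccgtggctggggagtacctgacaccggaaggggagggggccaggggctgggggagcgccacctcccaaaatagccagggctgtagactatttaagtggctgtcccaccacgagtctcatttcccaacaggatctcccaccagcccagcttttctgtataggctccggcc
Dupd1: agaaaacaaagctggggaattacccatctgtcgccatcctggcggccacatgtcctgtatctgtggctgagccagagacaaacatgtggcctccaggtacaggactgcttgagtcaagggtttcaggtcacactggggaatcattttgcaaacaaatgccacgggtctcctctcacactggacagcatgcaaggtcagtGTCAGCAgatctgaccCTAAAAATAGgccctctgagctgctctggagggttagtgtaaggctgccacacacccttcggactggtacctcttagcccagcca
In Pvalb the capitals mark a MEF2 match from base 71 to base 80, and in Dupd1 they mark TGCTGAC, of the Maf recognition element, on the opposite strand from base 200 to 206 and a MEF2 match from 216 to 225. Pvalb had 2 windows, and the other, at chr15:78204188-78204487, held no match to any of the 4 motifs searched. None of these motifs was in the windows of Mybpc2 and Mss51.

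Of the 159 genes past 2-fold higher against fast 2A cells, 117 had a promoter in the table and 5 of these held a MEF2 match on either strand (4.27%), beside 3 of 74 genes past 2-fold lower (4.05%) and 167 of all 5752 tested genes with a promoter (2.90%). TGCTGAC was in 4.27%, 5.41% and 4.62%. TCAGGTT, the core of the MEF3 motif, was in 5.98%, 5.41% and 3.88%. CAGCTG, an E-box of the myogenic factors, was in 22.2%, 32.4% and 18.3%. Over all 32851 windows the shares were 3.19% for MEF2, 4.67% for TGCTGAC, 4.07% for TCAGGTT and 16.3% for CAGCTG. A match is a run of letters and not a site, and the genes had unequal numbers of windows, 1.27, 1.54 and 1.32 on average.

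Cells that did not pass the filters gave another reading, with the same rule applied to those with at least 20 Myh counts. Of these, 90 met the rule of the members, 330 that of hybrid cells and 66 that of fast 2A cells, with medians of 48.1%, 53.3% and 52.0% mitochondrial counts. With totals free of mitochondrial genes, 123 of the 159 higher genes (77.4%) and 82 of the 90 lower genes (91.1%) had the same direction, while 47.6% of all tested genes were higher. Ratios were closer to 0 than in the kept cells, with 0.92 for Mss51, 0.91 for Pvalb, 0.73 for Actn3, 0.51 for Mybpc2 and -2.50 for Tnnt1. Of the 12 highest genes against fast 2A cells and the 8 highest against hybrid cells, 5 went the other way there. Carmn had -1.71 (limits -2.89 to -0.66) and Gdf11 -0.91 (limits -1.69 to -0.18), while the limits of Amd2 at -0.82, Ucp1 at -0.36 and Amd1 at -0.19 held 0. Of the 12 lowest genes against fast 2A cells, Car2 had 0.05. Fosb of the stress list also changed direction. These shallower cells came from the same mouse, plates and lanes.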

How the data were processed

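Single myofibers of the FDB of 1 mouse were read by mcSCRB-seq. The authors mapped reads to GRCm38 (mm10) with added spike-in sequences using zUMIs and STAR 2.5.4b and counted UMIs per gene with featureCounts; the submitters' processing notes also name Cell Ranger 3.1.0. The deposited values are these raw UMI counts (other fields of the same columns describe the cell), not normalized and not pooled, for 35163 genes in 763 cells; 4 gene symbols had been turned into dates and were not used by name.

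From these counts, cells were filtered and classed by their Myh counts, counts were summed per group, and CPM with exact Poisson limits, ratios with exact conditional binomial limits and shares with Clopper-Pearson limits (95%) were computed in Python 3.11.15 with numpy 2.4.6, pandas 2.3.3 and scipy 1.17.1. Spike-ins were kept out of totals. A gene was called past 2-fold against fast 2A cells or past 1.5-fold against hybrid cells, with at least 500 counts over both groups. TMM factors were computed with code written for this purpose, as no count model was fitted to cells of 1 mouse. The ratio code was tested on simulated data. Named genes were the 12 highest and 12 lowest against fast 2A cells and the 8 highest and 8 lowest against hybrid cells among those with the same direction on both lanes and in the mean over cells, the 12 most variable genes, and examples from each gene list, namely its extremes and most abundant members; unnamed gene models (Gm and Rik symbols) were counted only, unless they overlap a named gene. Genes singled out beyond this rule, such as isoform partners, were chosen after their values were seen. The members and lists were chosen with earlier results of these data known. Whether counting used strand is not given in the sources used here, so genes that overlap another on the opposite strand (among those named, Mybpc2, Myom2, Maf, Kcnh7, Neto2, Ddr2, Myl2, Myl3, Tnnc1, Homer2, Atp2a1, Aldoa, Adamts4 and Selp, for example) have uncertain counts. Leaving out single plates, single cells rich in markers of other cell types, and a filter of 20 CPM were tried after seeing the data. Myom1, Cox4i1, mt-Nd4, mt-Co3, Cpt1b, Nefl and Cdh15 were not analysed here. No promoter was used for Actn3, Myom2, Atp1b2, Odf3l2 and Maf. UMIs remove amplified copies, and precision follows the summed counts of each group, from 10057649 to 29122361. Some items are not reported here.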

Additional observations from a re-analysis of the deposited data

How the results depend on the processing

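Counts are given as genes higher and lower against fast 2A cells (159 and 90) and higher and lower against hybrid cells (220 and 183). Thinning each cell to an equal depth gave 278, 144, 641 and 684, a minimum of 100 counts gave 594, 213, 954 and 1144, and no minimum gave 3395, 2571, 4252 and 5449. These settings by construction hold fewer counts or more genes of few counts. Against hybrid cells, the mean over cells gave 481 lower, a Myh2 share limit of 30% gave 335 higher, a mitochondrial share computed without the ribosomal genes mt-Rnr1 and mt-Rnr2 gave 408 higher and 545 lower, leaving out the 25% of cells richest in markers of other cell types gave 86 lower, and leaving out plate 711 gave 110 lower; the cause was not tested. With 1 lane left out, the counts were 110 to 142 and 62 to 63 against fast 2A cells and 144 to 266 and 104 to 254 against hybrid cells, the members numbered 30 to 39, and 0 to 5 of the 12 most variable genes were shared, compared with 3 without the member richest in other markers. Of 599 ratios of named genes against fast 2A cells under these alternatives none changed sign, and of 429 against hybrid cells only Mctp1 did, at 0.15 without plate 711. Apart from added marker genes, these genes were chosen for large ratios with the same direction on both lanes and in the mean over cells. Their signs without 1 lane and in the mean over cells were thus set by the choice, and a change under other settings was made less likely. List medians changed sign in 36 of 408 values in each comparison. Most were near 0, but the median of slow calcium handling against fast 2A cells went from -1.07 to between 0.04 and 0.26. This was so with a Myh2 share limit of 20%, without lane 2, without the 25% of cells richest in other markers and without each plate in turn. In the main setting 3 genes were tested, and -1.07 was the ratio of Casq2, between Atp2a2 at -1.30 and Ryr3 at 1.57. The genes that passed the minimum of counts differed between settings, and Casq2 fell below it against hybrid cells. Without Casq2 the median lies midway between Atp2a2 and Ryr3, so its change of sign does not show that any gene changed direction. No paired analysis was possible because all cells came from 1 mouse and the results come from no test.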

Other observations

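Against hybrid cells, the median log2 ratio of all genes was 0.07. Calcium release and buffering genes had a median of 0.29, with 17 of 18 above the median of all genes, and Ryr3 was at 1.29. Genes of the mitochondrial genome had a median of -0.47, with all 9 below 0, whereas nuclear respiratory chain genes had -0.11, with 1 of 24 past 1.5-fold lower; the latter median was 0.09 with mt-Rnr1 and mt-Rnr2 kept out of the mitochondrial filter and 0.00 without lane 2. Neuromuscular junction genes had 0.24 and glycogen and glycolysis genes 0.19. Maf and Mstn were each at 1.14 and Mafa at 0.93. Satellite cell markers, of which 7 were in the table, summed to 243 CPM in the members, 239 CPM in hybrid cells and 229 CPM in fast 2A cells. Of the 7081 counts behind this sum in the members, Itga7 gave 3749 and Sdc4 2813.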
